A study of Mus musculus with 6 samples.

Results

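Transcripts of the insulin-like growth factor (IGF) axis were described across 6 mouse retina libraries made from pups with oxygen-induced retinopathy at postnatal day 15, 3 from Emcn-/- pups and 3 from Emcn+/+ littermates. The axis was taken as 10 genes chosen by name for their role, namely the ligands Igf1 and Igf2, the receptors Igf1r, Igf2r and Insr, the receptor substrates Irs1 and Irs2, and the binding proteins Igfbp2, Igfbp4 and Igfbp5. All 10 were found among the 28627 genes measured, and all 10 passed the filter on low values together with 16681 genes in all. The deleted gene, Emcn, encodes endomucin, a mucin on the surface of endothelial cells. In the model, high oxygen makes retinal capillaries regress, and the return to room air leaves an underperfused, hypoxic retina in which new vessels sprout. Both groups went through the model, and retinas kept in room air throughout were not analysed here. The labels give the genotype as a plain null and littermate wild type, with no strain, sex, oxygen schedule or number of animals behind a sample. Each p-value therefore rests on the scatter among samples, 3 a genotype, which may be technical in part. The fits used here also draw the scatter of each gene towards that of other genes of like level.

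IGF1 and IGF2 are secreted growth factors that signal through the tyrosine kinase receptor IGF1R and, in hybrid receptors or at lower affinity, through the insulin receptor. The receptors phosphorylate the adaptors IRS1 and IRS2, which recruit PI3 kinase and activate Akt and mTOR, while Akt keeps FoxO transcription factors out of the nucleus. IGF2R, the cation-independent mannose 6-phosphate receptor, clears IGF2 into lysosomes, and the IGF binding proteins (IGFBPs) hold the ligands in tissue fluid and release them when proteases cut them. In the eye, IGF1 is known as a permissive factor for the effect of VEGF on retinal endothelium, and low serum IGF1 after preterm birth is associated with human retinopathy of prematurity.

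No transcript of the axis passed the test for a genotype difference. In a limma fit over all tested genes, 0 of 10 were called at a Benjamini-Hochberg adjusted p of 0.05, where 0.00599% of all tested genes were called, Emcn alone. edgeR on the recovered reads also called 0 of the 10. DESeq2 called 0 of the 8 members to which it gave an adjusted p, and 1.18% of all such genes. Its own filter left Igf2 and Irs1 without one, and without that filter it called 0 of the 10. The largest separations ran in both directions. Igfbp4 and Igfbp5 lay higher in every Emcn-/- library than in any Emcn+/+ library, and Igf1r, Igf2r, Insr and Irs1 lay lower in every Emcn-/- library. Such separation without overlap was met by 6 of 10 members and by 14.4% of all tested genes. An unadjusted p under 0.05 was met by 5 of 10 members and by 8.14% of all tested genes. Of these members 2 were higher, as were 3.67% of all tested genes, and 3 were lower, as were 4.47%. The median log2 fold change was -0.08 over the 10 members and 0.007 over all tested genes. Log2 fold changes here are Emcn-/- over Emcn+/+ on the log2(normalised reads + 1) scale, and normalised reads are reads per gene divided by 1 size factor per library.

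**Figure D1:**
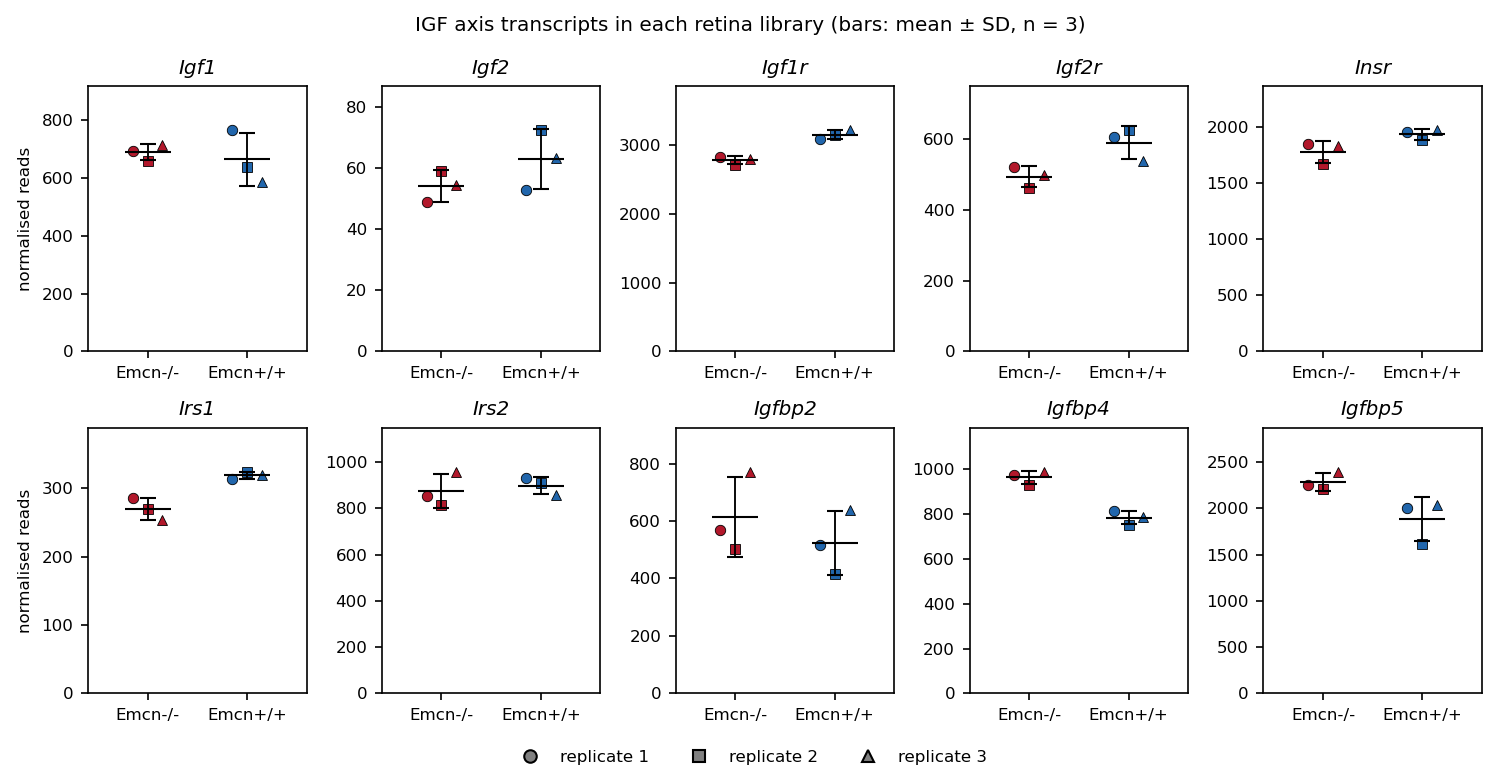
Normalised reads of each IGF axis gene in each library, with Emcn-/- at the left and Emcn+/+ at the right of each panel; points are libraries, horizontal bars are means and whiskers SD (n = 3). The genotypes separate without overlap in Igf1r, Igf2r, Insr and Irs1, lower in Emcn-/-, and in Igfbp4 and Igfbp5, higher in Emcn-/-.

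The libraries held 14865868 to 17087621 reads assigned to genes, and a count of 0 allows up to 2.77 to 3.28 normalised reads (3 reads, counting error only). Emcn fell in the Emcn-/- libraries, with 1.95, 1.04 and 4.62 normalised reads against 93.3, 80.6 and 100.5 in the Emcn+/+ libraries (log2 fold change -4.83 ± 0.40 SE, limma adjusted p = 0.0143). Some libraries stood apart from their group. Lens markers summed to 53126 normalised reads in Emcn+/+ replicate 1, against 51.3 to 274.5 in the other 5 libraries. Emcn+/+ replicate 3 was the only library with many Xist reads (17641, against 1 to 5 elsewhere) and no Ddx3y read. It also lay farthest out on the first principal component, at 38.3. The Emcn-/- libraries lay at -4.3 to 13.2 and the other Emcn+/+ libraries at -26.2 and -17.7. Markers of tissues next to the retina differed too. The 12 markers of retinal pigment epithelium summed to 8907 to 12416 in Emcn-/- and 3786 to 7906 in Emcn+/+, with 11 of 11 tested markers positive, and the 9 markers of ciliary body and iris summed to 1971 to 2334 in Emcn-/- and 1124 to 1702 in Emcn+/+. Emcn-/- replicate 2 stood apart in vascular markers: its endothelial sum was 1815, against 2996 to 3495 in the other 5 libraries, and it was also the lowest library in Igf1r, Igf2r and Insr. Without it, Igf1r had a log2 fold change of -0.16, Igf2r -0.20 and Insr -0.08, and the part of vascular RNA in these values was not tested. The pigment epithelium and ciliary sums were lowest in Emcn+/+ replicate 2, and no marker of these 3 lists was at 0 in all libraries.

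Among the ligands, Igf1 varied little in Emcn-/- (coefficient of variation 4.08%) and more in Emcn+/+ (13.8%, against 3.91% from counting alone). This gene (ENSMUSG00000020053, GRCm38 chromosome 10, 87858265 to 87937042, plus strand) is made in the eye as well as in liver. Its values were 693, 659 and 714 normalised reads in the Emcn-/- libraries, against 765, 639.5 and 587.5 in the Emcn+/+ libraries. The Emcn-/- values lay inside the Emcn+/+ range, whose highest point was the library with lens transcripts. The means were 689 ± 28.1 in Emcn-/- and 664 ± 91.5 in Emcn+/+ (SD, n = 3 each), with a log2 fold change of 0.06 (95% interval -0.16 to 0.28, limma adjusted p = 0.890). Serum IGF1, which comes mainly from liver, is outside what retinal RNA can show.

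Igf2, the imprinted fetal growth factor (ENSMUSG00000048583, chromosome 7, 142650766 to 142666816, minus strand), was the weakest transcript of the axis. It had 48.7, 59.1 and 54.5 normalised reads in Emcn-/-, against 52.9, 72.3 and 63.3 in Emcn+/+. The groups overlapped, and the 2 highest values were both Emcn+/+. Its log2 fold change was -0.21 (95% interval -0.64 to 0.23, limma adjusted p = 0.795). Leaving out 1 library moved it to -0.10 (Emcn+/+ replicate 2), -0.13 (Emcn-/- replicate 1) or -0.32 (Emcn+/+ replicate 1). At 50 to 78 reads a library, counting alone gives a coefficient of variation of 13.4% in Emcn-/- and 12.7% in Emcn+/+, about the size of the observed 9.67% and 15.5%. Igf2os overlaps Igf2 on the opposite strand and averaged 17.1 normalised reads (11.1 to 27.3); whether the libraries keep strand is unknown, so that reads of the pair cannot be told apart.

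The receptors gave the lower side of the axis. Igf1r (ENSMUSG00000005533, chromosome 7, 67952827 to 68233668, plus strand) encodes the receptor through which both ligands mainly signal, and was the member with the most reads. It had 2829.5, 2714 and 2803 normalised reads in the Emcn-/- libraries, against 3089.5, 3155 and 3218 in the Emcn+/+ libraries. Every Emcn-/- value lay below every Emcn+/+ value, and the spread within a group was small. The means were 2782 ± 60.8 in Emcn-/- and 3154 ± 64.4 in Emcn+/+ (SD, n = 3 each). The log2 fold change was -0.18 ± 0.05 (SE), a difference of -11.8%, with a 95% interval of -0.29 to -0.07, an unadjusted p of 0.00451 and a limma adjusted p of 0.424.

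Igf2r (ENSMUSG00000023830, chromosome 17, 12682406 to 12769664, minus strand) encodes the clearance receptor for IGF2. The Emcn-/- libraries had 523, 463 and 498 normalised reads, against 607, 626 and 537 in the Emcn+/+ libraries. The groups did not overlap, and the gap between them was narrowest at Emcn+/+ replicate 3. In limma this gave a log2 fold change of -0.25 ± 0.08 (SE; 95% interval -0.45 to -0.06), with an unadjusted p of 0.0158 and a limma adjusted p of 0.522. Airn, the antisense transcript that silences the paternal Igf2r allele, overlaps it and averaged 76.4 normalised reads (53.9 to 91.8). Its log2 fold change was -0.31 ± 0.20 (SE, limma adjusted p = 0.704), and reads of the overlap cannot be told apart.

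Insr (ENSMUSG00000005534, chromosome 8, 3122061 to 3279617, minus strand) encodes the insulin receptor. It had 1844, 1666 and 1827 normalised reads in Emcn-/-, against 1952, 1881.5 and 1971 in Emcn+/+. The groups were next to each other without overlap, and Emcn-/- replicate 2 was the lowest library. Insr had a log2 fold change of -0.12 (95% interval -0.25 to 0.01, limma adjusted p = 0.633), with 1779 ± 98.4 in Emcn-/- and 1935 ± 47.2 in Emcn+/+ (SD, n = 3 each). Without Emcn-/- replicate 2 the log2 fold change of Insr was -0.08.

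The substrates differed from each other. Irs1 (ENSMUSG00000055980, chromosome 1, 82233101 to 82291416, minus strand) had 285, 269.7 and 254 normalised reads in Emcn-/-, against 314, 323.5 and 319 in Emcn+/+. Every Emcn-/- library lay lower, and the Emcn+/+ libraries varied little, with an SD of 4.61 normalised reads (n = 3). That is a coefficient of variation of 1.45%, below the 5.64% that counting alone gives, so the small spread does not measure a steady level. For Irs1 this gave a log2 fold change of -0.24 ± 0.09 (SE; 95% interval -0.44 to -0.04), with an unadjusted p of 0.0218 and a limma adjusted p of 0.534. Irs2 (ENSMUSG00000038894, chromosome 8, 10984681 to 11008458, minus strand), the adaptor that FoxO factors are known to induce in liver, had 852, 813 and 956 in Emcn-/-, against 929, 907 and 857 in Emcn+/+. The groups overlapped, with the highest and the lowest library both Emcn-/-, and the log2 fold change was -0.04 (95% interval -0.21 to 0.13, limma adjusted p = 0.904).

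Igf1r, Igf2r and Irs1 were picked because they lay lower in every Emcn-/- library, although none passed. Insr lay lower too, but had no start region to read. RefSeq start regions of Igf1r, Igf2r and Irs1 (GRCm38.p6, 250 bases before to 30 bases after the start) were read for common motifs. They are shown 5′ to 3′ on the gene's strand, with capitals for the GC box GGGCGG, bound by Sp1, and for ACGTG or GCGTG, the core bound by hypoxia-inducible factors, each on either strand.
Igf1r: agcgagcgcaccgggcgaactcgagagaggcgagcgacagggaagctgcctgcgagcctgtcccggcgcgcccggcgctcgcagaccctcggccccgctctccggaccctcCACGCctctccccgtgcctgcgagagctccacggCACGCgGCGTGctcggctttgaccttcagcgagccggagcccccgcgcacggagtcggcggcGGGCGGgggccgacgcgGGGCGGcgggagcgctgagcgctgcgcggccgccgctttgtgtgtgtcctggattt
Igf2r: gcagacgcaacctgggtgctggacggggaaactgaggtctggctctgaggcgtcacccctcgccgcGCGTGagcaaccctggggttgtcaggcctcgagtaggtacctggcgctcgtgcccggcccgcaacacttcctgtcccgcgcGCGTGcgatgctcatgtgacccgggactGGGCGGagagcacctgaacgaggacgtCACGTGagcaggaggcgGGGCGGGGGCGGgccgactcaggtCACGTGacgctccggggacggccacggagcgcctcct
Irs1: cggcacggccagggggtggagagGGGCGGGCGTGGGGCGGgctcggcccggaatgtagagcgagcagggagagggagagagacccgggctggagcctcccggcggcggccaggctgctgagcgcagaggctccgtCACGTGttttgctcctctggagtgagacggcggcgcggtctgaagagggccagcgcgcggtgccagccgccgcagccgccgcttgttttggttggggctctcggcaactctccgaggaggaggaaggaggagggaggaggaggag
The windows are chr7:67952007-67952286 (plus strand), chr17:12769677-12769956 (minus) and chr1:82291410-82291689 (minus). The Igf1r and Igf2r windows lie wholly before the starts that GENCODE gives these genes, so the annotations place those starts differently. All 3 windows are rich in G and C, at 75.7%, 70.4% and 71.8%, against a median of 52.5% over all 32851 windows of the table. Igf1r holds 2 GC boxes and 3 hypoxia cores. Igf2r holds 3 GC boxes, 2 of them abutting, and 6 hypoxia cores, of which 4 come from 2 copies of CACGTG, a palindrome counted once on each strand. Irs1 holds 2 GC boxes with a hypoxia core between them in an unbroken run, and a CACGTG that gives 2 more cores. The GC box occurs in 34.7% of all windows and the hypoxia core in 41.8%, so both are common.

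The binding proteins gave the higher side. Igfbp4 (ENSMUSG00000017493, chromosome 11, 99041244 to 99054392, plus strand) encodes a small IGFBP that inhibits IGF action until the protease PAPP-A cuts it. It had 977, 931.5 and 987 normalised reads in the Emcn-/- libraries, against 812, 753.5 and 785 in the Emcn+/+ libraries. Every Emcn-/- library lay above every Emcn+/+ library, and the gap exceeded the range within either group. The means were 965 ± 29.5 in Emcn-/- and 784 ± 29.3 in Emcn+/+ (SD, n = 3 each). The log2 fold change was 0.30 ± 0.06 (SE), or 23.1% higher, with a 95% interval of 0.16 to 0.44 and an unadjusted p of 0.000845. That p ranked 34 among the tested genes, and the limma adjusted p was 0.374 (DESeq2 adjusted p = 0.0747), so Igfbp4 did not pass.

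Igfbp5 (ENSMUSG00000026185, chromosome 1, 72857932 to 72874884, minus strand) encodes a conserved IGFBP that also binds extracellular matrix. It had 2256, 2208 and 2391 normalised reads in Emcn-/-, against 2005, 1615 and 2034.5 in Emcn+/+. The groups did not overlap, and Emcn+/+ replicate 2, the library with the least pigment epithelium and ciliary RNA, was well below the rest. For Igfbp5 this gave a log2 fold change of 0.28 ± 0.09 (SE; 95% interval 0.08 to 0.49), with an unadjusted p of 0.0111 and a limma adjusted p of 0.499. Without Emcn+/+ replicate 2 it was 0.18, smaller by more than 1.5 times.

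Igfbp2 (ENSMUSG00000039323, chromosome 1, 72824503 to 72852474, plus strand) lies 5457 bp from Igfbp5 and points towards it. It encodes an IGFBP that prefers IGF2 and can bind integrins. It had 568, 502 and 769.8 normalised reads in Emcn-/-, against 515, 415 and 638 in Emcn+/+. The groups overlapped, and replicate 3 was the highest of each genotype. These replicates carry sample numbers from 186 to 188, while the other 4 libraries carry 144 to 148. Igfbp2 was 0.49 higher on the log2 scale in the 186 to 188 libraries than in the others, which is more than the genotype difference within either number series (0.21 and 0.27). Between the genotypes the log2 fold change was 0.23 (95% interval -0.19 to 0.64, limma adjusted p = 0.757). It was 0.05 without Emcn-/- replicate 3, 0.07 without Emcn+/+ replicate 2, 0.36 without Emcn-/- replicate 2 and 0.38 without Emcn+/+ replicate 3. With a block for the number series the unadjusted p was 0.0341, against 0.245 without it, and the limma adjusted p was 0.361. Its coefficient of variation of 22.8% in Emcn-/- and 21.3% in Emcn+/+ compares with 3.97% and 4.43% from counting alone, the widest excess of the 10 members.

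The start regions of the higher pair, Igfbp4 and Igfbp5, are shown beside those of the lower genes, in the same window and with a TATA box (TATAAA) also in capitals.
Igfbp4: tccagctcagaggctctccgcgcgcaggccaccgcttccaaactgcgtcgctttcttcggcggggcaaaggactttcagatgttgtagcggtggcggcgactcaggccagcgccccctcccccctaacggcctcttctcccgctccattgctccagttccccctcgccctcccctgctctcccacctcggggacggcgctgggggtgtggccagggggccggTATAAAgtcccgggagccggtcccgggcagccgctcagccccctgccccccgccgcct
Igfbp5: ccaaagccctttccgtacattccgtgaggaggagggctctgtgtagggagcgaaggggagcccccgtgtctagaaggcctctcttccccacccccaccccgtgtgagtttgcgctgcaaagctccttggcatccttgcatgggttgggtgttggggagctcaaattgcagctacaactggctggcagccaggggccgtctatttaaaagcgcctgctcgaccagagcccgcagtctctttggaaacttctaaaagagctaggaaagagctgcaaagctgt
They are chr11:99040994-99041273 (plus strand) and chr1:72874836-72875115 (minus strand). Neither holds a GC box or a hypoxia core, although Igfbp4, at 70.7% G and C, is as rich in these bases as the 3 lower genes. The motifs do not sort the members by direction: the first Igfbp2 window, of a gene with a positive value, holds 3 GC boxes and 4 hypoxia cores, and that of Irs2, whose groups overlapped, holds 1 GC box and 3 cores. Igfbp4 has 1 TATA box, 28 bases before the start, and TATAAA occurs in 13.1% of all windows; Igfbp5 matches none of the motifs searched. GTAAACA, a FoxO motif found in 3.49% of all windows, was in none of the 13 windows that cover 9 of the 10 members, and CAAAACA, the insulin response element core found in 5.97%, was in Irs1 (2 matches on the opposite strand, not marked, the first of them overlapping CACGTG) and Irs2 (1 match). A match or its absence describes these letters only.

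**Figure D2:**
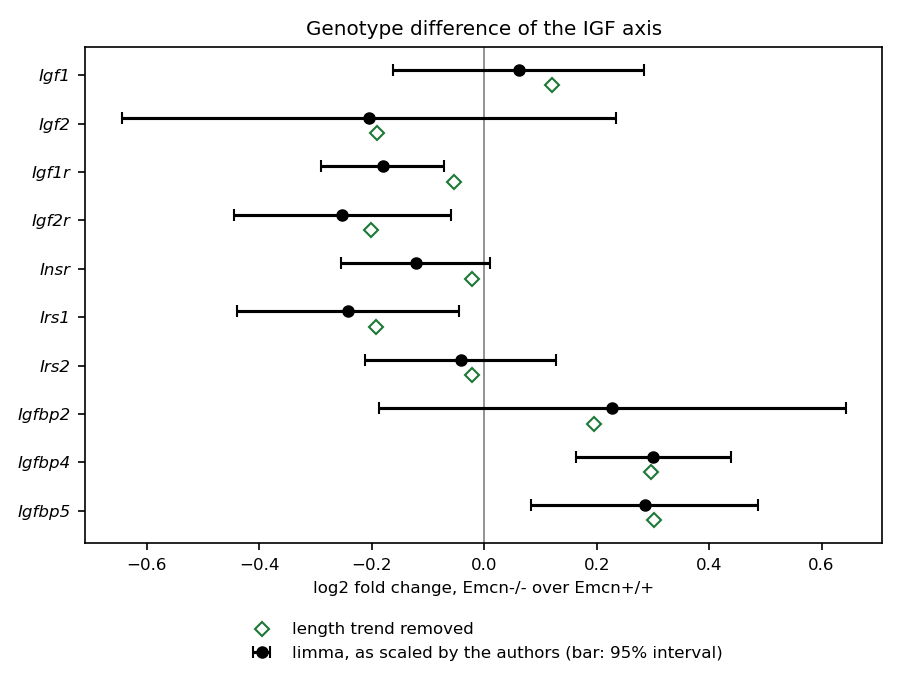
Log2 fold change (Emcn-/- over Emcn+/+, horizontal axis) of the 10 genes: black points with 95% intervals from limma, and green diamonds after a trend with gene length was removed from each library. Intervals of Igf1r, Igf2r and Irs1 lie below 0 and those of Igfbp4 and Igfbp5 above it, all before adjustment, and the diamond of Igf1r moves to -0.05.

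The lower members are long transcripts. Igf1r (16791 bp of exon), Insr (13746 bp), Igf2r (9308 bp) and Irs1 (9144 bp) all have at least 9000 bp of exon, as 1985 tested genes do. Igf1, at 9904 bp, is also that long and was not lower (0.06, and 0.12 after the trend described next was removed). Those 1985 genes had a median log2 fold change of -0.10, and 22.7% of them were lower in every Emcn-/- library, against 6.94% of all tested genes, while 2.32% were higher in every one, against 7.48%. In 10 equal groups by exonic length, the median ran from 0.07 in the shortest genes to -0.11 in the longest. After the trend on length was removed from each library, Igf1r had a log2 fold change of -0.05 and Insr -0.02, both with overlapping groups. Igf2r (-0.20) and Irs1 (-0.19) were still lower in every Emcn-/- library. Igfbp4 (4416 bp) and Igfbp5 (6006 bp), both below 9000 bp, each had 0.30 and were still higher in every Emcn-/- library. The number of members at an unadjusted p under 0.05 was then 3, namely Igf2r, Igfbp4 and Igfbp5. After this removal the shares of all tested genes, at that p and without overlap, were not counted. The part of length in the receptors' values beyond this was not tested.

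**Figure D3:**
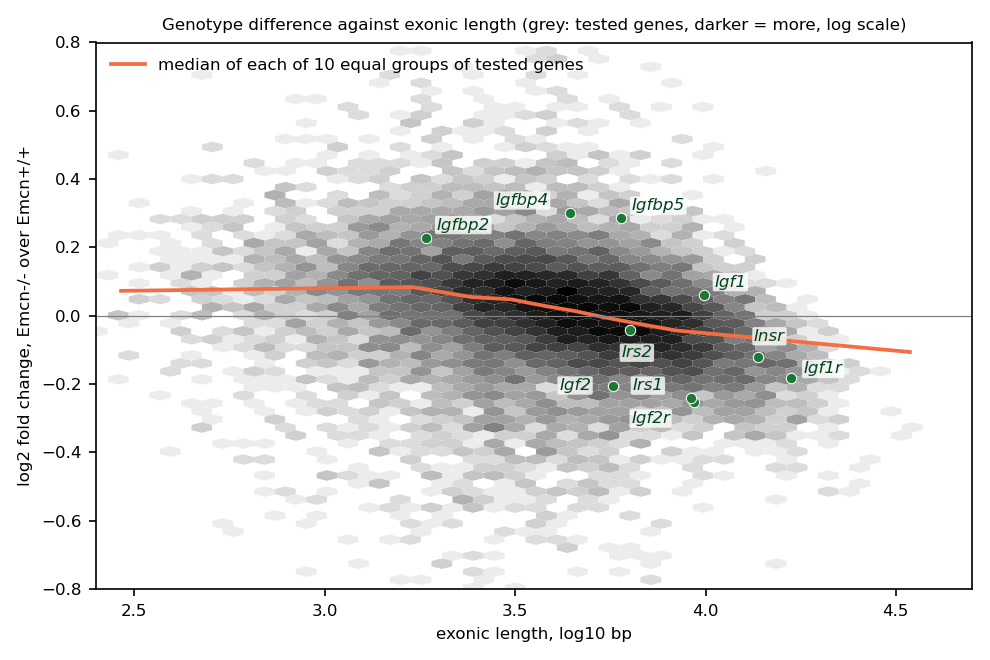
Log2 fold change (Emcn-/- over Emcn+/+) against exonic length (log10 bp) for tested genes, in grey, with the IGF axis in green and the median of each of 10 equal groups by length in orange; 351 of 16419 genes with a length lie beyond ±0.8 and are not drawn. The orange line falls from 0.07 to -0.11, Insr and Igf1r lie near it, and Igfbp4 and Igfbp5 lie above it.

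Set side by side per kilobase of exon, Igfbp5 and Igfbp2 were the most abundant transcripts of the axis. Igfbp5 had 380.5 ± 15.8 normalised reads per kb in Emcn-/- and 314 ± 39.0 in Emcn+/+ (SD, n = 3 each), and Igfbp2 had 332 ± 75.6 in Emcn-/- and 283 ± 60.3 in Emcn+/+. These levels did not differ beyond their spread. Igfbp4 followed with 218.5 ± 6.68 in Emcn-/- and 177 ± 6.63 in Emcn+/+, and Igf1r with 166 ± 3.62 in Emcn-/- and 188 ± 3.83 in Emcn+/+, so that Igfbp4 stood above Igf1r in Emcn-/- and just below it in Emcn+/+. Irs2 (138 ± 11.6 in Emcn-/-, 142 ± 5.84 in Emcn+/+) and Insr (129 ± 7.16 in Emcn-/-, 141 ± 3.43 in Emcn+/+) overlapped within their spread on this length. Igf1 had 69.6 ± 2.84 per kb in Emcn-/- and 67.1 ± 9.23 in Emcn+/+, and Igf2r had 53.1 ± 3.25 in Emcn-/- and 63.4 ± 5.0 in Emcn+/+; these neighbours overlapped in Emcn+/+ and not in Emcn-/-. Irs1 (29.5 ± 1.70 in Emcn-/-, 34.9 ± 0.505 in Emcn+/+) and Igf2 (9.46 ± 0.914 in Emcn-/-, 10.98 ± 1.70 in Emcn+/+) were the lowest, each apart from its neighbours. With the longest transcript as the length, 4 of the 10 places in the order over both genotypes were kept. In that order Igfbp2 and Igfbp5 changed places, and Igf1r moved ahead of Igfbp4. Within Emcn-/- Igfbp4 was still above Igf1r (251.9 against 243.8), and within Emcn+/+ it was still below (204.5 against 276.5). Insr (190.2 in Emcn-/-, 206.8 in Emcn+/+) stood well above Irs2 (138.2 in Emcn-/-, 142.0 in Emcn+/+).

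**Figure D4:**
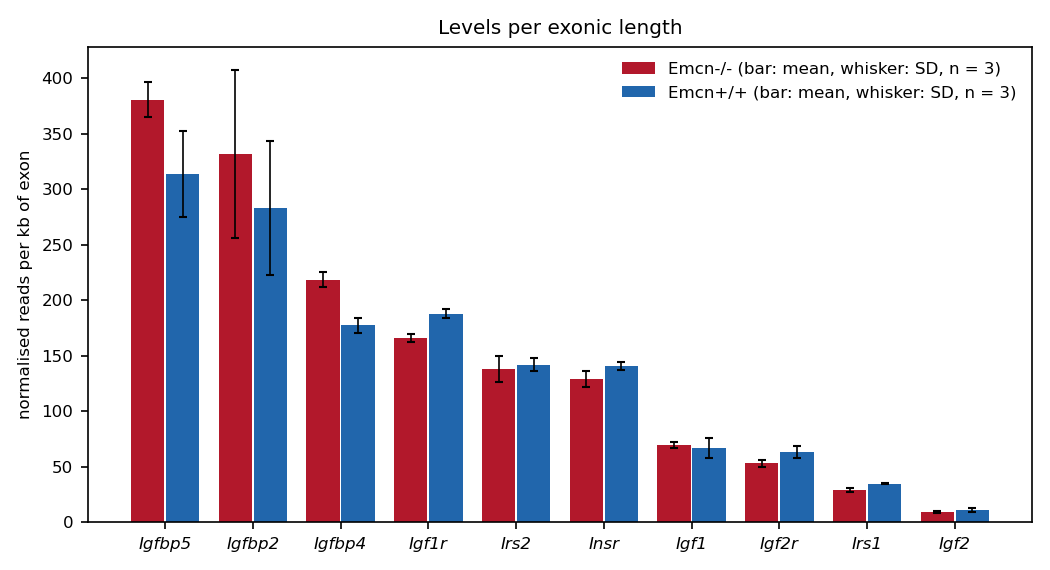
Mean normalised reads per kb of exon for each IGF axis gene, Emcn-/- in red at the left and Emcn+/+ in blue at the right of each pair, with whiskers of 1 SD (n = 3). Igfbp5 and Igfbp2 stand at the left with the highest levels in both genotypes, Igfbp4 is above Igf1r in Emcn-/- and below it in Emcn+/+, and Igf2 is lowest at 9.46 in Emcn-/- and 10.98 in Emcn+/+.

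Of the members, Igfbp2, Igfbp5 and Igf2 varied most over the 6 libraries, with log2 ranges of 0.89, 0.57 and 0.56. As a description, the 3 of 11040 well-expressed genes whose log2 values ran most like those of Igfbp2 were Psmb2, a proteasome subunit (Pearson r = 0.994 over 6 libraries), Dbn1, which encodes the actin-binding protein drebrin (0.991), and Vasp, a regulator of actin filaments (0.987). For Igfbp5 they were the Mediator subunit Med19 (0.997), Cyrib (0.993) and the dehydrogenase Dhrs7 (0.988). For Igf2 they were the peptidase Apeh (0.987), Miip (0.986) and the RNA helicase Ddx17 (0.982). With 6 libraries such values are met by many genes, as 45 genes passed 0.95 for Igfbp2, 70 for Igfbp5 and 21 for Igf2, and all values share the libraries and their scaling.

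The rest of the pathway was read through 8 lists of 123 symbols, of which 121 were found and 107 tested. The fit called 0 of 107 genes, 52 were positive and 55 negative, and the median log2 fold change was -0.01 against 0.007 over all tested genes. At an unadjusted p under 0.05 there were 7 higher and 8 lower genes, or 15 of 107 beside 8.14% of all tested genes. Separation without overlap was seen in 9 genes higher and 9 lower, beside 7.48% and 6.94% of all tested genes. In 2 fits some of these genes passed. Without Emcn+/+ replicate 3, when 0.905% of all genes were called, Esm1, Ccn1 and Kcnq1ot1 passed, and DESeq2 without its filter called Kcnq1ot1.

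Among 10 other binding proteins and partners, 8 were positive with a median of 0.12. Esm1, which encodes endocan, an endothelial tip cell proteoglycan with an IGFBP-type domain, had 94.5, 120.3 and 91.5 normalised reads in Emcn-/-, against 41.5, 34.3 and 83.0 in Emcn+/+. The groups did not overlap, although Emcn+/+ replicate 3 came close to the Emcn-/- libraries. The log2 fold change was 1.03 ± 0.31 (SE, limma adjusted p = 0.482), and without that library it was 1.40 (adjusted p = 0.0242). Ccn1, a matricellular protein of the CCN family, which also carries an IGFBP-type domain, had 116.8, 131.7 and 147.9 in Emcn-/-, against 59.1, 73.2 and 110.3 in Emcn+/+. It showed the same layout, without overlap and with Emcn+/+ replicate 3 nearest. Its log2 fold change was 0.74 ± 0.23 (SE, limma adjusted p = 0.498), and 0.99 without Emcn+/+ replicate 3 (adjusted p = 0.0456). Igfbp3, the main carrier in serum, had 347 ± 98.3 in Emcn-/- and 330 ± 153 in Emcn+/+ (SD, n = 3 each; limma adjusted p = 0.922). Endothelial markers, the cells in which Esm1 is mainly made, summed to 1815 to 3480 in Emcn-/- and 2996 to 3495 in Emcn+/+, with 2 of 11 tested markers positive (Emcn is one of the 11) and none at 0 in all libraries, so their sum did not lie higher in Emcn-/-. The low end was Emcn-/- replicate 2 alone, as the other Emcn-/- libraries had 3191 and 3480. In bulk tissue, fewer cells of a type and less RNA per cell cannot be told apart.

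Of 11 other ligands, receptors and substrates, 6 were positive. Lrp1, an endocytic receptor that can bind IGFBP3, had a log2 fold change of -0.30 ± 0.09 (SE, limma adjusted p = 0.499) and was lower in each Emcn-/- library; it has 17717 bp of exon. Insrr, the insulin receptor-related receptor, had 33.1, 36.3 and 27.7 normalised reads in Emcn-/-, against 21.8, 26.0 and 15.3 in Emcn+/+, which did not overlap (0.62 ± 0.28 SE, limma adjusted p = 0.616). Of 14 proteases that cut IGFBPs and their inhibitors, 9 were positive. Htra3 (-0.58 ± 0.25 SE) and Mmp2 (-0.21 ± 0.11 SE) had the smallest p, with limma adjusted p of 0.600 and 0.661, and both had overlapping groups. Pappa2, which encodes an IGFBP5 protease, had 193 ± 22.4 in Emcn-/- and 231 ± 41.8 in Emcn+/+ (SD, n = 3 each), and Pappa, whose product cuts IGFBP4, had 53.3 ± 12.2 in Emcn-/- and 62.0 ± 20.2 in Emcn+/+. Of 9 genes of growth hormone input, which drives IGF1 synthesis in liver, 2 were positive, and Ghr, the growth hormone receptor, had the smallest p (0.28 ± 0.20 SE, limma adjusted p = 0.718), followed by Socs1, a feedback inhibitor of cytokine receptors (-0.65 ± 0.47 SE, adjusted p = 0.726).

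Downstream, 22 of 30 tested genes of the PI3K, Akt and mTOR cascade had negative values, with a median of -0.06, and 5 were lower and 2 higher without overlap, beside 6.94% and 7.48% of all tested genes. Of those 5, Rictor (16930 bp of exon), Tsc1 (11833 bp) and Pdpk1 (10935 bp) are among the genes of at least 9000 bp, of which 22.7% were lower without overlap. Phlpp2, a phosphatase that acts on Akt, had 2773, 2780.0 and 2888 normalised reads in Emcn-/-, against 3031.5, 3273 and 3192 in Emcn+/+ (-0.17 ± 0.05 SE, limma adjusted p = 0.493). Tsc1, which with Tsc2 restrains mTOR, had 1041, 1075 and 1043 in Emcn-/-, against 1165, 1209.5 and 1168.5 in Emcn+/+ (-0.17 ± 0.05 SE, limma adjusted p = 0.514). Both were lower in each Emcn-/- library and had the smallest p of the cascade, and neither passed. Phlpp2 has 8449 bp of exon, in a length group with a median log2 fold change of -0.04. The part of length in these 2 values was not tested. Akt1 lay on the other side, with 2022, 2013 and 2036 in Emcn-/-, against 1858.5, 1903 and 1912 in Emcn+/+ (0.10 ± 0.05 SE, limma adjusted p = 0.640). Rictor, the scaffold of mTOR complex 2, had -0.20 ± 0.07 (SE, limma adjusted p = 0.528). Akt1 and Rictor were singled out after their values were seen.

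Of 17 tested FoxO factors and FoxO-regulated genes, 11 were positive with a median of 0.06. Gadd45a, a stress gene that FoxO factors induce, had 576, 583 and 546 normalised reads in Emcn-/-, against 460.5, 489 and 500.2 in Emcn+/+. The groups did not overlap (0.23 ± 0.07 SE, limma adjusted p = 0.488). Sesn1, a sestrin that restrains mTOR, was also higher in each Emcn-/- library (0.15 ± 0.06 SE, limma adjusted p = 0.561). Among the 13 tested imprinted growth genes, 6 were positive. Kcnq1ot1, a long antisense RNA that silences an imprinted cluster next to that of Igf2, had 263.9, 182.6 and 211.6 normalised reads in Emcn-/-, against 553.8, 428.2 and 300.3 in Emcn+/+. It was lower in each Emcn-/- library (-0.93 ± 0.22 SE, limma adjusted p = 0.400). DESeq2 without its filter gave -0.97 (adjusted p = 0.00218), and without Emcn+/+ replicate 3 limma gave -1.16 (adjusted p = 0.0183). With 93092 bp its annotated exon is among the longest of the table. H19, which shares its enhancers with Igf2, had 126.6 ± 34.3 in Emcn-/- and 111.1 ± 51.4 in Emcn+/+ (SD, n = 3 each), and Meg3 had the next smallest p of that list (-0.37 ± 0.20 SE, limma adjusted p = 0.661). Of the 3 IGF2 mRNA binding proteins, Igf2bp3 had 68.2, 67.4 and 61.9 in Emcn-/-, against 105.8, 90.8 and 93.9 in Emcn+/+. It did not overlap and did not pass (-0.55 ± 0.15 SE, limma adjusted p = 0.451), and Igf2bp1 was low and scattered (0.31 ± 0.54 SE, adjusted p = 0.903).

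**Figure D5:**
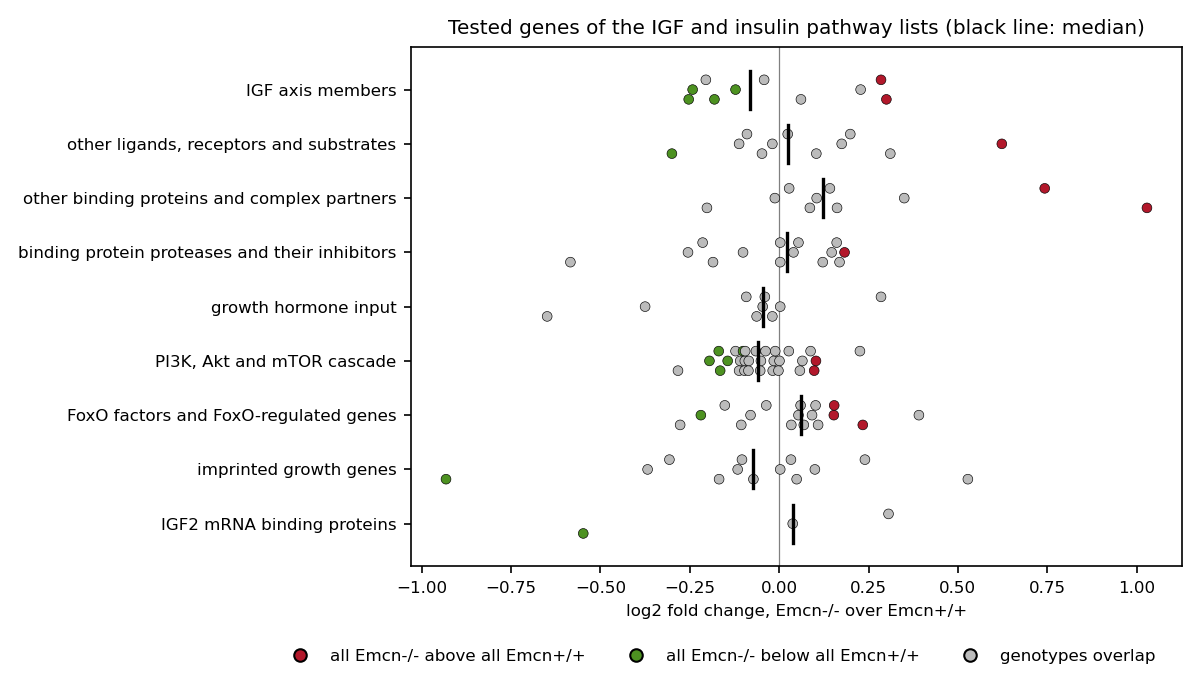
Log2 fold change (Emcn-/- over Emcn+/+, horizontal axis) of each tested gene of the IGF axis and of the 8 pathway lists, with black lines at the medians; red genes were higher and green genes lower in every Emcn-/- library, and grey genes overlapped. Medians lie between -0.08 and 0.12, with Esm1 and Ccn1 at the right and Kcnq1ot1 at the left.

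Leaving out the libraries that stood apart left the directions of the 6 separated members as they were. Without Emcn+/+ replicate 1, Igfbp4 had a log2 fold change of 0.33, Igfbp5 0.33, Igf1r -0.20, Igf2r -0.23, Insr -0.12 and Irs1 -0.25. Without Emcn+/+ replicate 3, Igfbp4 had 0.30, Igfbp5 0.34, Igf1r -0.17, Igf2r -0.32, Insr -0.11 and Irs1 -0.24, with limma adjusted p of 0.0713 for Igfbp4, 0.0890 for Igfbp5 and 0.0973 for Igf2r, still short of the threshold. Without Emcn+/+ replicate 2, the number of members at an unadjusted p under 0.05 was 3, against 5 with all libraries. The share of all tested genes at that p without this library was not counted. Emcn+/+ replicate 2 was the lowest library in pigment epithelium and ciliary markers and also in Igfbp2, Igfbp4 and Igfbp5. Among the Emcn-/- libraries, replicate 2 was lowest in all 3 binding protein genes. Its ciliary sum was also the lowest (1971, against 2035 in replicate 1 and 2334 in replicate 3). Its pigment epithelium sum (12416) was instead above that of replicate 1 (8907). The part of these tissues in the binding protein values was not tested. Fibroblast markers, another source of IGFBPs, summed to 1245 to 2611 in Emcn-/- and 1063 to 1805 in Emcn+/+, and overlapped. Of 6 tested fibroblast markers, 1 was positive and 5 were negative. The positive one, Fbln1, had the highest mean of the list (1026 in Emcn-/-, 502 in Emcn+/+), so the sums mostly follow it.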

How the data were processed

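Poly-A RNA of 6 mouse retina samples was sequenced, 3 Emcn-/- and 3 Emcn+/+, grouped by the genotype in the labels. The deposited table holds a signal per gene that is not whole and not adjusted for length; the authors' aligner, counter and scaling are, in the sources used here, not given. The build is GRCm38 per the submitters' processing notes. Each library had 1 step of which 100% of its deposited values were multiples (to within 0.001 of a read), so reads per gene were recovered by dividing by that step, and the inverse steps equalled DESeq2's size factors within 4.16e-05. Every value column was used. A blanket protocol covers both stranded and unstranded kits.

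Positions and exonic lengths came from GENCODE M21 (GRCm38), found for 27386 of 28627 genes and 98.4% of tested genes. Genes kept by edgeR's filter (minimum count 10) were fitted with limma 3.58.1 (R 4.3.3, intensity trend, log2(value + 1), genotype as the only term), with Benjamini-Hochberg adjustment over 16681 genes. This scale understates changes of low genes. edgeR 4.0.16 (TMM, quasi-likelihood) and DESeq2 1.42.0 were alternatives on the recovered reads after the same filter; edgeR called 1 gene and DESeq2 82 of 6972 with an adjusted p. Other alternatives were TMM or upper-quartile scaling, pseudocounts 0.5 and 5, other filters, each library left out, a block for the 2 ranges of sample title numbers (144 to 148 and 186 to 188) and removal of a loess trend on log10 exonic length. Replicate numbers were given in accession order and pair no samples. Scripts were tested on simulated counts.

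The members and gene lists were chosen with earlier results of these data known, so nothing was adjusted over a list and no set test was run. Genes named beside the members are the 2 of smallest p in each pathway list, the 3 most like each of the 3 most variable members, the members' partners, and a few that the text singles out, among them Igfbp3, Pappa, Pappa2 and H19. Start regions were taken from RefSeq (GRCm38.p6) for 9 members, all but Insr.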

Additional observations from a re-analysis of the deposited data

How the results depend on the processing

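No member passed the adjusted threshold under any of the 170 member alternatives, of which 168 kept the direction; 2 of them, DESeq2 for Igf2 and Irs1, gave no adjusted p. The 2 that reversed were Igf1 without Emcn+/+ replicate 3 (-0.023) and Irs2 without Emcn-/- replicate 2 (0.008); with 1 library left out Igf1 ranged from -0.023 to 0.17 and Irs2 from -0.11 to 0.008. The number of members at an unadjusted p under 0.05, 5 at first, was 3 with the length trend removed, because values of long genes shift by construction, and 3 to 6 when 1 library was left out. All genes called numbered 82 with DESeq2, 67 with DESeq2 without its filter, and 0 at a mean of at least 50 normalised reads, where Emcn itself drops out; leaving out 1 library gave 0 to 151, the highest without Emcn+/+ replicate 3, and the cause was not tested. Of the other pathway genes, 1 was called by DESeq2 without its filter and 0 to 3 with 1 library left out. Members without overlap numbered 6 to 8 with 1 library left out. Separation is easier to meet with fewer libraries, and the share of all tested genes was not counted there, so the rise says nothing about the members. The block for the number series gave 7 members at an unadjusted p under 0.05 and called 0. The share of all tested genes at that unadjusted p was counted only in the main limma fit, at 8.14%. The counts of members at that p under other settings therefore have no share beside them. With the longest transcript, 4 of the 10 places by level were kept. No paired analysis was possible because the replicate numbers only follow sample order. Depth limits Igf2 most, at 50 to 78 reads a library, and 3 libraries per genotype limit every member: an interval such as -0.16 to 0.28 for Igf1 leaves moderate differences undecided.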
